A study of Mus musculus with 5 samples.

Results

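The genes described here encode enzymes and subunits that write, erase and read marks on chromatin, together with corepressors and nucleosome remodellers. The members were 36 such genes chosen by name, and 32 of them had a row of their own among the 12267 genes tested. Each gene was represented by the row paired with its symbol alone, or by the row with the highest mean where there were several. Ncor1, Cbx6, Tet1 and Ash1l were not analysed here. CD4 single-positive (CD4SP) lymphocytes, which carry CD4 and not CD8, were sorted by flow cytometry from the thymi of C57BL/6J mice aged 4 to 6 weeks. Wild type mice gave 2 arrays. Mice of the PLZF transgenic genotype on the same background gave 3. PLZF is a zinc finger transcription factor encoded by Zbtb16. Each array held RNA from pooled mice, described by the labels as a biological replicate. The labels do not name the promoter that drives the transgene or the number of founder lines. Zbtb16 was not analysed here, so no value checks the genotype labels.

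Histone deacetylases remove acetyl groups from histone tails and act in corepressor complexes such as NCoR, while acetyltransferases such as p300 and CBP add them. Polycomb complexes hold developmental genes silent by ubiquitylating histone H2A and methylating histone H3, and demethylases of the Jumonji family remove such methyl groups. Human PLZF recruits NCoR, SMRT and histone deacetylases to its targets, and mouse PLZF has been linked to the Polycomb protein Bmi1. The comparison here asks whether the transcripts of this machinery differ between CD4SP cells of the genotypes. In RNA from a population of cells, fewer cells of a type and less RNA per cell cannot be told apart.

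Most of these transcripts differed little between the genotypes. Called with limma at a Benjamini-Hochberg adjusted p below 0.05 over all genes, 3 of 32 fell in PLZF transgenic cells and none rose. Those that fell were Chd7, which encodes a nucleosome remodeller mutated in CHARGE syndrome, Kdm6b, which encodes the histone H3 lysine demethylase JMJD3, and Chd3, which encodes the Mi-2 alpha ATPase of the NuRD complex. The share of members called was 9.38%. Of all genes tested 4.74% were called, 1.72% as higher and 3.02% as lower. Among genes at or above the median of gene means, where 31 of the 32 lay, 8.53% were called, so the count of members called was near the background of genes at that level. All 3 calls were lost without transgenic replicate 1, 2 or 3 in turn, with array weights, or with the replicate number as a block (adjusted p between 0.100 and 0.431 in those fits), and Chd3 also without wild type replicate 2 (adjusted p = 0.0593).

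**Figure D1:**
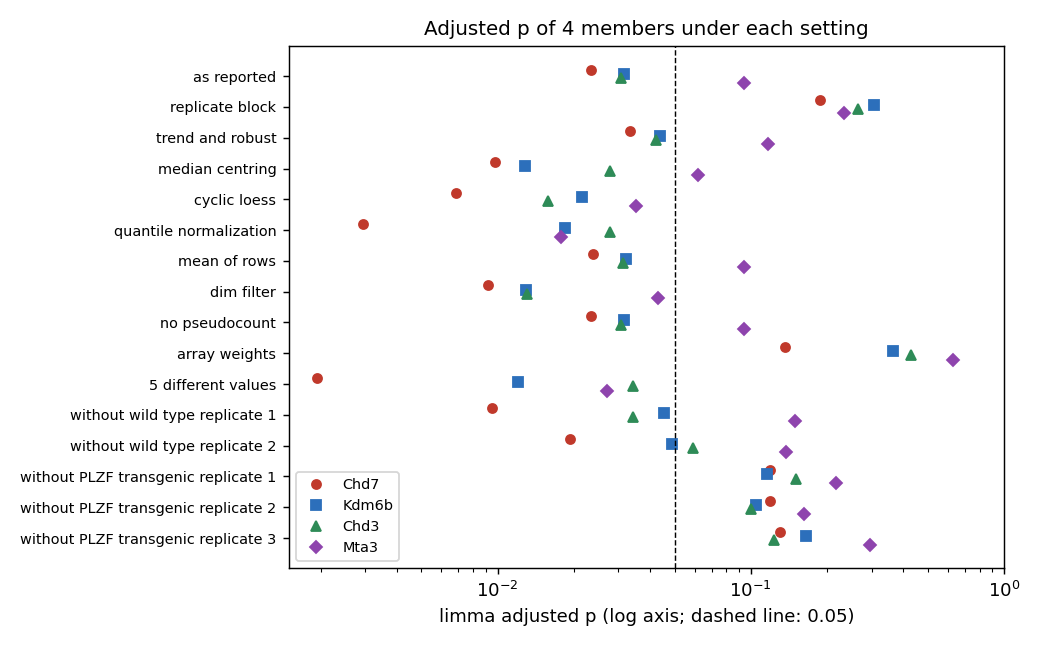
Limma adjusted p (log axis) of Chd7, Kdm6b, Chd3 and Mta3 under each alternative setting, with the threshold of 0.05 as a dashed line. The points of all 4 genes lie to the right of the line with the replicate block, with array weights and without any 1 transgenic array.

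Identical values between arrays bear on every count below. Values no more than 0.000005 apart on the log2 scale were taken as identical. By that measure 8 of the 32 members, or 25%, had 5 different values over the 5 arrays, against 32.8% of all genes tested. For Hdac2, Suz12 and Dnmt3a a single value was deposited for all 5 arrays, as it was for 11.9% of all genes. In 9 members the 3 transgenic arrays held the same value. The 3 members that fell were all among the 8 with 5 different values. Of all genes tested with 5 different values, 13% were called.

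**Figure D2:**
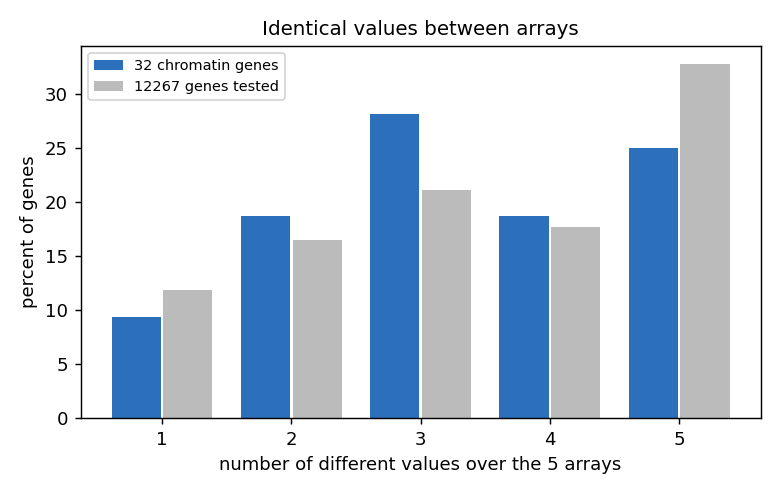
Percent of genes (vertical axis) by the number of different values deposited over the 5 arrays (horizontal axis), for the 32 chromatin genes in blue and all 12267 genes tested in grey. The bar for 5 different values is 25% for the chromatin genes and 32.8% for all genes.

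The markers of the sort were as follows. Of 13 T cell markers 6 were measured, and Cd3d, Cd3e, Cd3g and Cd4 were not analysed here. Their summed intensity ran from 14872 to 15463 in wild type and from 12283 to 12533 in transgenic arrays, and 3 of them, Cd2, Cd5 and Cd28, fell at an adjusted p under 0.05. Of 7 markers of CD8 or double-positive thymocytes 3 were measured, with sums of 339 to 355 and 293 to 322, and none was called. Of 8 B cell, 9 myeloid and 5 natural killer cell markers 4, 5 and 2 were measured, and none was called. Their sums in wild type against transgenic arrays were 317 to 321 against 336 to 360, 708 to 739 against 574 to 627, and 243 to 300 against 169 to 197. Of 10 markers of thymic epithelium or stroma 7 were measured, with sums of 1992 to 2062 and 1755 to 1782. Pecam1, which T cells also carry, was the member of that list that fell. No erythroid marker was measured. The part of these shifts in the results below was not tested.

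Among the remodellers, Chd7 changed most of all 32 genes. Wild type cells had log2 intensities of 9.49 and 9.70, and transgenic cells of 8.50, 8.60 and 8.60. The groups did not overlap, and all 3 transgenic arrays lay close together. The difference of means was -1.03 ± 0.08 (SE), with a 95% interval from -1.27 to -0.79, so wild type cells had 2.04-fold more (limma adjusted p = 0.0233). It ranked 61 among the 370 genes that fell, of which 66 fell by at least 1 on the log2 scale. Leaving out any single array gave changes from -1.13 to -0.92. Chd3 was at 11.10 and 11.13 in wild type and at 10.91, 10.87 and 10.92 in transgenic arrays. Every transgenic array was below both wild type arrays, by a margin that was narrow in size and wide against the spread within groups. The log2 change was -0.22 ± 0.02 (SE), or 86.1% of the wild type level (limma adjusted p = 0.0306), and rank 303 of the 370 falls.

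Mta3, a NuRD subunit that replaces Mta1 or Mta2 in some forms of the complex, was the member with the largest positive change. Its log2 intensity was 9.57 and 9.64 in wild type and 9.86, 10.00 and 9.90 in transgenic arrays. All transgenic arrays were above both wild type arrays. The log2 change of 0.32 ± 0.06 (SE), or 1.24-fold, did not pass (limma adjusted p = 0.0940). It passed after cyclic loess (0.0352), after quantile normalization (0.0178), and in fits over genes at or above the median of gene means (0.0430) or over genes with 5 different values (0.0272), which test fewer genes. Mta1 had a log2 change of -0.03 and overlapping groups (adjusted p = 0.458). Smarca2, an ATPase of the BAF complex, had a change of 0.0034, and Arid1b, a DNA-binding subunit of that complex, one of -0.0016. The 95% intervals ran from -0.03 to 0.04 for Smarca2 and from -0.01 to 0.0073 for Arid1b. In Arid1b 4 of the 5 arrays held 1 value, so its interval rests mostly on the variance shared across genes. The other 2 rows of Arid1b had changes of 0.11 and 0.10, opposite in sign to the row used.

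**Figure D3:**
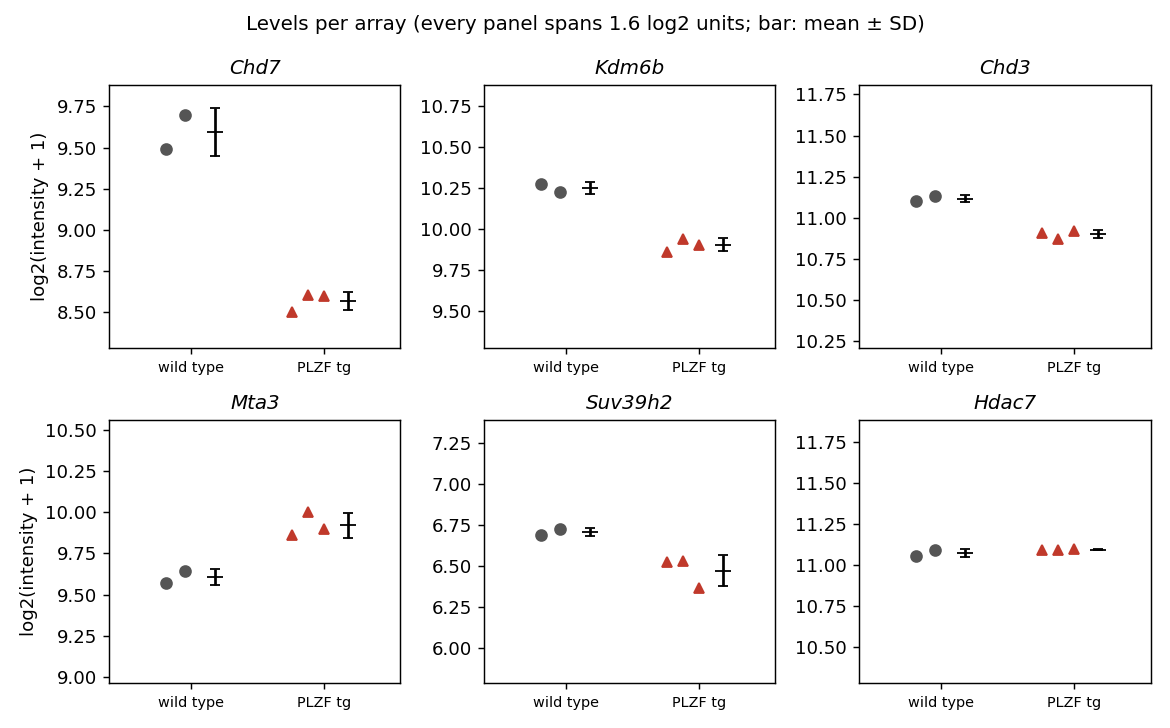
Log2(intensity + 1) per array for 6 members, wild type arrays as grey circles (n = 2) and PLZF transgenic arrays as red triangles (n = 3), with mean and SD beside them. Every panel spans the same range, and Chd7 shows the widest gap (9.59 against 8.57 in the means) while Hdac7 shows 11.08 against 11.09.

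Of the 2 demethylases, Kdm6b fell. Its log2 intensity was 10.28 and 10.22 in wild type and 9.86, 9.94 and 9.91 in transgenic arrays. The groups stood apart by more than the spread within either. The change was -0.35 ± 0.03 (SE), or 78.7% of the wild type level (95% interval on the log2 scale from -0.44 to -0.25, limma adjusted p = 0.0315). JMJD3 removes methyl groups from lysine 27 of histone H3, the mark that Polycomb sets. Kdm2a, which encodes a demethylase of lysine 36 of histone H3, had 10.31 in every array and a change of 0.00069 (adjusted p = 0.956).

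Kdm6b and Chd3 lie near each other on mouse chromosome 11, with the protein-coding genes Cyb5d1, Naa38 and Tmem88 between them in the RefSeq annotation of GRCm38.p6. These neighbours were looked at after the values of the pair were seen. Naa38 had the same value in all 5 arrays. Tmem88 had a log2 change of -0.20 ± 0.10 (SE, limma adjusted p = 0.458). Cyb5d1 was not analysed here. On the outer sides, Kcnab3 next to Chd3 had a change of 0 and Dnah2 next to Kdm6b one of -0.01 ± 0.0081 (SE, adjusted p = 0.460). Of the genes analysed in this stretch, Chd3 and Kdm6b were thus the ones past the threshold.

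The deacetylases showed small differences. Of 7 listed genes of this role 6 were measured, and none passed. Hdac3, the catalytic subunit of the NCoR complex, was at 10.87 and 10.89 in wild type and at 10.77, 10.84 and 10.84 in transgenic arrays. The transgenic arrays were all lower, with a change of -0.07 ± 0.03 (SE, adjusted p = 0.415). Hdac5, a class IIa deacetylase that shuttles between nucleus and cytoplasm, was at 8.76 and 8.89 in wild type and 8.68, 8.71 and 8.73 in transgenic arrays. Its change of -0.12 ± 0.05 (SE) had a 95% interval from -0.26 to 0.02 (adjusted p = 0.379). The other class IIa genes overlapped between groups, with a change of -0.03 for Hdac4 and of 0.02 for Hdac7, which is abundant in thymocytes. The interval for Hdac7 ran from -0.02 to 0.05. Sirt1, an NAD-dependent deacetylase, was at 8.52 and 8.55 in wild type and at 8.48, 8.48 and 8.47 in transgenic arrays. The shift was small and the groups did not overlap (-0.06 ± 0.0099, SE, adjusted p = 0.0930). Hdac2 held 10.05 in all arrays.

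Of 7 Polycomb genes 6 were measured and none passed. Bmi1, a core subunit of Polycomb repressive complex 1, was at 7.68 and 7.78 in wild type and at 7.61, 7.65 and 7.66 in transgenic arrays. Cbx2, a chromodomain subunit of that complex, was at 9.47 and 9.57 against 9.40, 9.45 and 9.45. In both genes the transgenic arrays lay just under the lower wild type array. Their changes were -0.09 ± 0.04 (SE) each, with adjusted p values of 0.453 and 0.458. The related Cbx8 and Cbx7 had changes of -0.04 and 0.05, and Ezh1, a methyltransferase of Polycomb repressive complex 2, one of -0.06, all with overlapping groups. Suz12, a scaffold subunit of that complex, held 10.58 in every array.

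Among the methyltransferases, Suv39h2, which methylates lysine 9 of histone H3 in heterochromatin, differed most. It was at 6.69 and 6.72 in wild type and at 6.52, 6.53 and 6.37 in transgenic arrays. The groups did not overlap, and transgenic replicate 3 was the lowest. The change of -0.23 ± 0.06 (SE) did not pass (95% interval from -0.42 to -0.05, adjusted p = 0.207). Its mean was the only one of the 32 below the median of gene means, 6.93, where background can compress a change. Ehmt1, which encodes GLP, another lysine 9 methyltransferase, had a change of -0.06, Setdb1 one of 0.01 and Setd7 one of 0.04. The groups overlapped in all 3. The other 2 rows of Setd7 had changes of -0.07 and 0.20, so its rows did not share a sign.

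Genes of DNA methylation and of histone acetylation varied within a narrow band. Dnmt3b, a de novo DNA methyltransferase, was at 7.70 in wild type replicate 1 and at 7.81 in the other 4 arrays, a change of 0.05 ± 0.04 (SE). Tet2, which oxidises 5-methylcytosine, was at 10.10 in wild type replicate 2 and at 10.05 in the other 4, a change of -0.02 ± 0.02. Dnmt3a held 9.56 throughout. In these 3 genes the transgenic arrays did not differ among themselves. The paralogous acetyltransferases Ep300 and Crebbp both had changes of -0.03, and Kat6b of -0.04. Kat2a, which encodes the SAGA acetyltransferase GCN5, had a change of 0.02. Its 3 transgenic arrays shared the value 10.31, between 10.25 and 10.33 in the wild type pair. Its sign therefore rested on the wild type array used: 0.06 without wild type replicate 2 and -0.02 without wild type replicate 1. Brd2, a reader of acetylated histones, had a change of -0.03, and its second row one of 0.03. None of these 8 genes passed (adjusted p between 0.458 and 1).

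**Figure D4:**
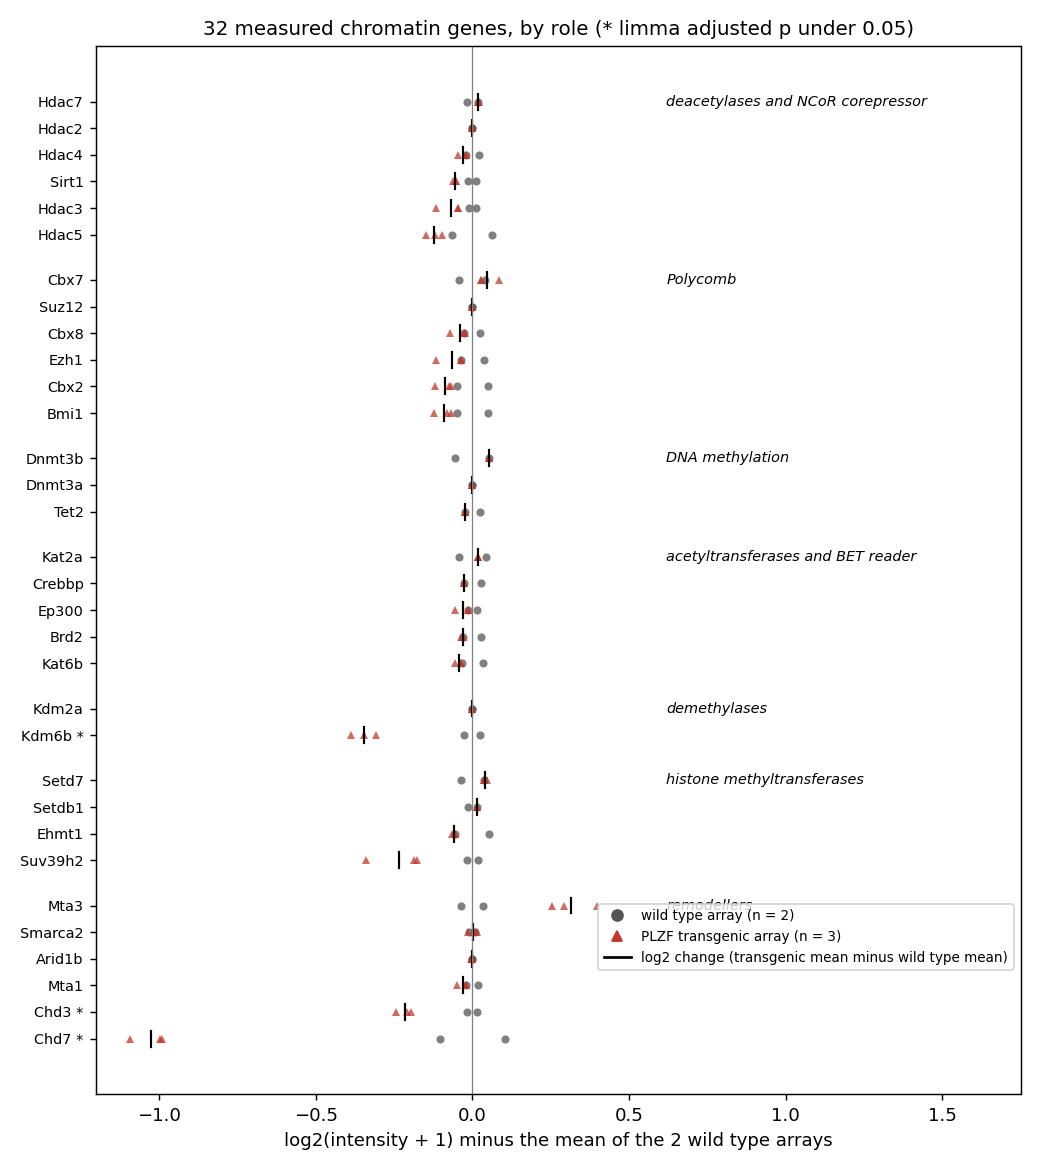
Log2(intensity + 1) of each array minus the wild type mean (horizontal axis) for the 32 measured genes, grouped by role. Grey circles are wild type arrays, red triangles transgenic arrays and black ticks the log2 change, which runs from -1.03 for Chd7 to 0.32 for Mta3, while most genes lie near 0.

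The 29 members that did not pass were bounded by the data. All 29 had a 95% interval within 0.5 of 0 on the log2 scale, and 26 had one within 0.25. The exceptions to the narrower limit were Hdac5, Suv39h2 and Mta3. For Hdac2, Suz12 and Dnmt3a, with a single value, the interval rests on the variance shared across genes alone. Those of Kdm2a and Arid1b rest mostly on it. In the other members with identical values the interval rests mostly on the spread of their own arrays. All intervals of genes with identical values may be too narrow. The transgenic arrays were all below the wild type pair in 10 of the 32 genes, or 31.2%, against 15.1% of all genes tested, and all above in 1, against 12.6%. Of the 120 further chromatin genes described below, 29 were lower without overlap, or 24.2%, and 19 higher. The median log2 change of the 32 was -0.03, and that of all genes was 0. This tilt moved with the scaling of the arrays. After quantile normalization 10 members were lower and 10 higher without overlap, against 20.6% and 20.8% of all genes under that scaling, and their median was 0.0054. After cyclic loess 17 were lower and 6 higher, against 23.7% and 19.6% of all genes. After median centring 11 were lower and 2 higher, against 17.3% and 20.0%. Beside the 3 members that fell, Mta3 rose after cyclic loess and after quantile normalization.

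The promoters of some members that leaned one way are shown beside that of Suz12, which held 1 value. Chosen after the values were seen, they are the 250 bases before the start of the RefSeq transcript in GRCm38.p6. In Suv39h2 (chr2:3474987-3475236, minus strand), Sirt1 (chr10:63339036-63339285, minus strand) and Bmi1 (chr2:18676768-18677017, plus strand) every transgenic array was lower, and none of the 3 passed the test. Suz12 (chr11:79992856-79993105, plus strand) did not vary. Capitals mark the GC box, searched as GGGCGG on both strands with overlapping matches allowed.
Suv39h2: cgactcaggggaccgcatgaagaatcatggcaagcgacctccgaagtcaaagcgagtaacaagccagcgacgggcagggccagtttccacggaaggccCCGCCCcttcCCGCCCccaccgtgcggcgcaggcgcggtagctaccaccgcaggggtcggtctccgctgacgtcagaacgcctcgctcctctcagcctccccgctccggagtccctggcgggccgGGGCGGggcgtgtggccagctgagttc
Sirt1: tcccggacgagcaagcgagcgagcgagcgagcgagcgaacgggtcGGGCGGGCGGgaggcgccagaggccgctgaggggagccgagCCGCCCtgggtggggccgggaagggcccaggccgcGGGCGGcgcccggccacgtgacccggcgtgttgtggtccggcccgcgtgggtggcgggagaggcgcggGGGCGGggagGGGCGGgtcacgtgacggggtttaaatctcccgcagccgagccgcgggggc
Bmi1: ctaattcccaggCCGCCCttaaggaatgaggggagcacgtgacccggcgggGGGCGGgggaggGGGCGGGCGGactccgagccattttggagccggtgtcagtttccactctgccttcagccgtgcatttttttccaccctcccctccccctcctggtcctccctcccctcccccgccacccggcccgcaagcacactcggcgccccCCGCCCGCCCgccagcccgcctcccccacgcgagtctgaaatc
Suz12: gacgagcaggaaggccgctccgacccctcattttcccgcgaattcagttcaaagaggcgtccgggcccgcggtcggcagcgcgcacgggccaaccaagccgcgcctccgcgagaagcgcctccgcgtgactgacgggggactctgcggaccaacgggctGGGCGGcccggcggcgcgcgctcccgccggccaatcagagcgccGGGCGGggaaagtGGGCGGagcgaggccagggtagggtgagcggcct
The windows hold 3, 6, 6 and 3 GC boxes and are 69.6%, 79.2%, 70.4% and 73.6% G and C, in the order shown. Whether these counts relate to the changes was not tested, and the single value deposited for Suz12 could not show a small change. A promoter was listed for 25 of the 32 members, and none for Chd7, Kdm6b, Chd3 and Mta3. Before at least 1 listed start, a GC box was found in 88% of the 25, against 49.7% of the 9410 tested genes with a listed promoter. The site letters of EGR factors, GCGNGGGCG on either strand, which can overlap a GC box, were in 24% against 8.13%. The CCAAT box (CCAAT on either strand) was in 24% against 38.3%, and the TATA box (TATAAA on either strand) in none against 11.9%. The median G and C content was 69.6% in members and 56.8% in all. These counts describe letters in a window and not binding.

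The wider chromatin machinery showed few calls, most of them small in size. Of 242 further genes listed by role, 120 were measured. At the same threshold 4 rose and 7 fell, or 9.17%, against the 4.74% of all genes. Most of the 120 lay above the median of gene means, and 8.53% of all genes at or above it were called. The share called was thus near that background. The median change of the 120 was -0.02. After quantile normalization 11 rose and 11 fell, and after cyclic loess 9 rose and 12 fell. Without transgenic replicate 1, 2 and 3 there were 0, 1 and 0 calls. All 11 calls made with the 5 arrays, the 4 that rose and the 7 that fell, were lost in each of these fits. The 1 call without replicate 2 was thus another gene. Among corepressors, Tle4, a Groucho family corepressor, rose. It was at 10.24 and 10.19 in wild type and at 10.77, 10.87 and 10.89 in transgenic arrays. The transgenic arrays stood clear of the wild type pair, with a change of 0.63 ± 0.05 (SE, limma adjusted p = 0.0207). Rcor3, a CoREST family corepressor, rose as well, from 8.50 and 8.56 to 8.94, 8.96 and 9.06. Its change was 0.46 ± 0.05 (SE, adjusted p = 0.0383). No further deacetylase or corepressor passed in the other direction. Chosen after their values were seen, Hdac10 and Rcor1 had transgenic arrays all below the wild type pair and missed the threshold. Hdac10, a deacetylase, had a change of -0.48 ± 0.07 (SE, adjusted p = 0.0580), and Rcor1, a CoREST corepressor, one of -0.16 ± 0.02 (SE, adjusted p = 0.0552). Cul3, picked in the same way, was higher without overlap and missed the threshold as well (0.14 ± 0.02, SE, limma adjusted p = 0.0651). Of the 18 further genes of this role measured, 3 were higher and 3 lower without overlap, against 12.6% and 15.1% of all genes. With a trend and robust fit Rcor3 no longer passed (adjusted p = 0.0520).

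Phf19 and Phf1, which encode accessory subunits of Polycomb repressive complex 2, changed in opposite directions. Phf19, which encodes a Tudor domain protein that recruits the complex, was at 7.68 and 7.72 in wild type and at 8.06, 8.15 and 8.15 in transgenic arrays. The change was 0.42 ± 0.04 (SE, limma adjusted p = 0.0247). Its paralogue Phf1 was at 9.13 and 9.10 against 8.86, 8.90 and 8.93, a change of -0.22 ± 0.03 (SE, adjusted p = 0.0449, and 0.0603 with a trend and robust fit). The groups did not overlap in either gene. The other 16 of 18 further Polycomb genes did not pass.

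Demethylase genes that passed all fell. Of 7 further demethylase genes measured, Kdm5b, which acts on lysine 4 of histone H3, changed by -0.34 ± 0.03 (SE) and Kdm4b, which acts on lysine 9, by -0.23 ± 0.02 (limma adjusted p = 0.0243 and 0.0192). Kdm5b was at 10.36 and 10.34 in wild type and at 10.06, 10.00 and 9.99 in transgenic arrays. Its other 2 rows had changes of -0.44 and -0.57, the same sign as the row used, but the mean of its rows did not pass (adjusted p = 0.238). Counting by symbol, 6 of 17 listed KDM genes were measured, and with Kdm6b 3 of these fell and none rose, where 3.02% of all genes fell and 1.72% rose. Of 10 listed genes with a CHD symbol, Chd1l among them, 6 were measured. Chd1, Chd3 and Chd7 fell, against the same 3.02%. All 6 genes with a CHD symbol had changes below 0, as did 5024 of the 12267 genes tested. The KDM and CHD genes measured all lay above the median of gene means, where 8.53% of genes were called in either direction. Chd1, a remodeller that binds methylated lysine 4 of histone H3, was at 9.92 in both wild type arrays and at 9.71, 9.71 and 9.68 in transgenic arrays (-0.22 ± 0.01, SE, adjusted p = 0.0140). These families were formed after the values were seen, so their counts are descriptions.

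The remaining calls were small. Gatad2b, a NuRD subunit, changed by -0.15 ± 0.02 (SE) and Bptf, a subunit of the NURF remodeller, by -0.08 ± 0.0063 (limma adjusted p = 0.0479 and 0.0236). Both calls depended on the processing. Bptf did not pass after median centring (adjusted p = 0.0799), cyclic loess (0.144) or quantile normalization (-0.04, 0.446), nor among genes with 5 different values (0.261). Its second row had a change of -0.26, and the mean of its rows, -0.17, did not pass (0.261). Gatad2b did not pass with a trend and robust fit (0.0639), after median centring (0.0606) or quantile normalization (0.0610), or among genes with 5 different values (0.0879). Of 14 listed NuRD genes 9 were measured, a family formed after the values were seen. Chd3 and Gatad2b fell and none rose, where 3.02% of all genes fell and 1.72% rose. The changes of these genes were above 0 in 4 and below 0 in 4, with a median of 0. Dot1l, the methyltransferase of lysine 79 of histone H3, changed by -0.25 ± 0.02 (SE, limma adjusted p = 0.0186). Ehmt2, which encodes G9a, the partner of GLP, was at 9.31 and 9.33 in wild type and 9.45, 9.47 and 9.48 in transgenic arrays. It rose by 0.15 ± 0.01 (SE, adjusted p = 0.0278, and 0.0790 among genes with 5 different values). None of the further genes of DNA methylation or of histone acetylation passed, of which 10 and 20 were measured.

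**Figure D5:**
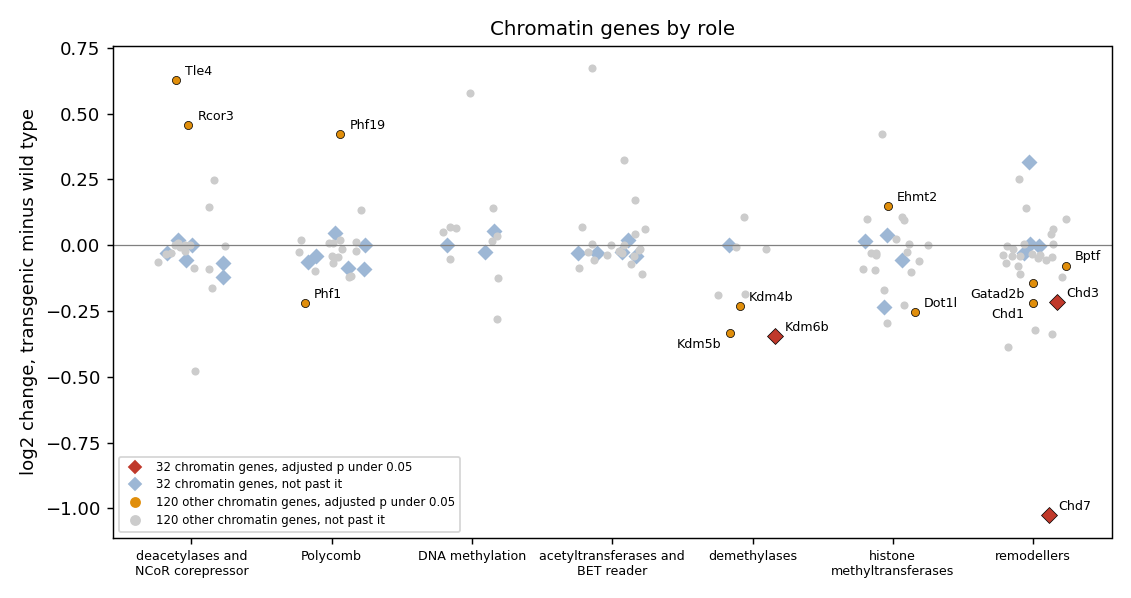
Log2 change, transgenic minus wild type (vertical axis), for the 32 chromatin genes (diamonds) and the 120 other chromatin genes (circles), by role, with named points past an adjusted p of 0.05. Chd7 lies at -1.03, below the other named points, which run from -0.35 for Kdm6b to 0.63 for Tle4.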

How the data were processed

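RNA of sorted CD4SP thymocytes was amplified, labelled with biotin and hybridised to Affymetrix mouse exon arrays, 1 per sample. Per the submitters' processing notes, RMA in Affymetrix Expression Console and the mm9 build were used, without versions. The deposited values are intensity on a linear scale. Their median per array was 59.0 to 60.3 and their maximum 13300 to 14527. The number of arrays limits the precision.

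From these values log2(intensity + 1) was computed. Of 65529 rows, 14011 carried 1 gene symbol, 864 several and 50654 none in the platform annotation, and rows with 1 symbol were used. The highest-mean row per gene gave 12267 genes. The difference, transgenic minus wild type, came from a linear model with moderated variances (limma 3.58.1, R 4.3.3), with 3 residual and 0.50 prior degrees of freedom, Benjamini-Hochberg adjustment over all genes and a threshold of 0.05. No filter on level was set. Whether the pools came from separate cohorts is not stated, so p values measure the spread between these arrays.

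The members and the lists of further genes, markers and alternatives were chosen with earlier results of these data known. All measured members were named, and of the further genes those past the threshold. Genes outside that rule are marked as picked after seeing values. Values are given with SE of the fit. Promoters came from RefSeq on GRCm38.p6, which is not the build of the arrays. The fit was tested on simulated data from the means and SDs of the 12267 genes. There 81 of 100 genes with a log2 change of 1 and 97 of 100 with a log2 change of 2 passed. So did 15 of 12067 unchanged genes. The 1455 genes with 1 value in all 5 arrays have an SD of 0. Recovery in genes with identical values was not tested separately. These counts are therefore not read as rates for the deposited data. Alternatives were the replicate block, a trend with robust fit, median centring, cyclic loess, quantile normalization, the mean of rows, a filter keeping genes at or above the median of gene means, no pseudocount, array weights, genes with 5 different values, and each array left out in turn.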

Additional observations from a re-analysis of the deposited data

How the results depend on the processing

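Counts of calls moved with most settings, while the directions of Chd7, Kdm6b, Chd3 and Mta3 were kept in all fits run. In each of these genes the transgenic arrays all lay on the same side of the wild type pair. Fits that drop or reweight arrays could therefore not turn the sign. With the replicate number as a block, which leaves 1 residual degree of freedom, 0 members, 0 further chromatin genes and 0 genes of all were called in either direction. The labels do not say that the number pairs arrays. The deviations of same-numbered arrays from their group means correlated at 0.14 and 0.05, and those of crossed numbers at -0.05 and -0.14. With 2 wild type arrays the deviations mirror each other, so the crossed values follow from the others. These correlations cannot decide whether the number pairs arrays. With array weights, 0 members fell, 0 further genes were called, and 1 gene of all rose and 0 fell. The weights were 0.21 for each wild type array and 1.83, 3.36 and 3.70 for transgenic replicates 1, 2 and 3. A low weight marks a noisier array, whereas the fit as reported assumes 1 variance for both groups. After cyclic loess, 1 member rose, 9 further genes rose and 12 fell, and 395 genes of all rose and 569 fell. After quantile normalization these were 1, 11 and 11, and 525 and 607, against 211 and 370 as deposited. With genes at or above the median of gene means they were 1, 8 and 15, and 372 and 569, with fewer genes tested. Among genes with 5 different values, 1 member rose, 418 genes of all rose and 625 fell, and the median change of the 8 members left was -0.17. The median change of members turned to 0.0054 after quantile normalization.

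With 1 array left out in turn, members called higher ran from 0 to 4 and lower from 0 to 9, further genes higher from 0 to 18 and lower from 0 to 34, and all genes higher from 2 to 1319 and lower from 2 to 1571. The highest counts came with a lone wild type array, assumed to vary like the transgenic ones. In such a fit the 9 members with identical transgenic values had no spread of their own, so calls of members there are not read. With a lone wild type array the change of Kat2a ran from -0.023 to 0.062, and that of Smarca2 from -0.0059 to 0.013.

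Changes of some members that did not pass turned sign: after quantile normalization Tet2 was 0.011, Ep300 0.024, Crebbp 0.061 and Arid1b 0.025, after cyclic loess Arid1b was 0.0088, after median centring Kdm2a was -0.0027, and with the mean of rows Brd2 was 0.0018 and Arid1b 0.071. The cause was not tested. The trend and robust fit, median centring, the mean of rows and log2 without a pseudocount kept 3 members lower and 0 higher. Hdac2, Suz12 and Dnmt3a hold no spread that could show a small change.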
